A study of Drosophila melanogaster with 2 samples.

Results

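Neurons of 7 inbred Drosophila lines were compared within a single library of larval brain from the third instar. The neurons were the methanol-fixed (MeOH) cells whose deposited annotation is only a cluster number, other than clusters 1, 3, 31 and 33, and they were summed by the line given for each cell. This took 1508 of the 5056 annotated cells of the series, and of the 2715 in the MeOH library, from 24 clusters. The study profiled dissociated larval brains with droplet-based 3 prime single-cell RNA sequencing, in which unique molecular identifiers (UMIs) count captured transcripts. The MeOH library pooled 7 lines of the Drosophila Genetic Reference Panel (DGRP), numbered 45, 136, 382, 409, 502, 639 and 761 and called DGRP-45, DGRP-136 and so on here. The fresh library was a hybrid based on DGRP-551, so strain and fixation differed together between the libraries. The groups follow the fixation field, although the extract protocol given for the fresh library mentions methanol as well, and 11 cell barcodes occurred in both. The labels name no transgene or treatment and do not give the number or sex of the larvae per line. Each line was therefore 1 unit, with no spread within a line, and no gene was tested between lines.

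DGRP lines were founded from wild-caught females and inbred by sib mating, so each carries a nearly fixed sample of natural variants. In pooled libraries, demuxlet assigns each cell to its line from the variants in its reads. Neuroblasts (NB) divide to give ganglion mother cells (GMC), which divide to give neurons, whereas glia support and wrap them. A difference between lines that is read in several of these cell classes is therefore a description of the same larvae made in separate cells, not a replicate of the line.

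The neurons held 5960023 UMIs, with 123 to 303 neurons, 407073 to 1287287 UMIs and a median of 2812 to 3543 UMIs per neuron in the 7 lines. DGRP-382 was the shallowest line. The neuron markers fne, Appl and elav stood at 7147, 981 and 833 UMIs per 1000000 (CPM), against 3.52 CPM for the glial factor repo and 5.54 CPM for the neuroblast factor dpn. The 8 neuron markers summed to 9946 CPM in these cells, against 793 CPM in glia, 3438 CPM in GMC and 807 CPM in NB. The 16 glia markers summed to 229 CPM in these cells, against 3508 CPM in glia, and the glia-listed Eaat2, at 116 CPM, was lower in glia, at 6.41 CPM. The 14 neuroblast and GMC markers summed to 26252 CPM in these cells, above 8274 CPM in GMC and 4549 CPM in NB, so that list does not set the classes apart. Of that sum pros gave 19294 CPM and hdc 6644 CPM. The neuron marker elav was higher in GMC, at 1661 CPM. The lines differed in makeup. Cluster 1, left out here, held 34.9% of the DGRP-502 cells, 26.8% of the DGRP-409 cells and 14.8% of the DGRP-761 cells, against 4.13% to 7.14% in the other lines. Cluster 13 gave 7.91% of the neurons of DGRP-502 but 1 neuron in DGRP-382 and 2 in DGRP-409.

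Few genes passed a strict rule on the size of the difference between lines. Of 5996 genes with at least 50 UMIs over the 7 lines, 74 passed the size rule, which is 1.23%. The rule asked that the lower 95% Poisson bound of the highest line be at least 2 times the upper bound of the lowest, with at least 20 UMIs in the highest line and at most 20% of those in 1 cell. These intervals, and all others given here, cover counting error only. A gene with few UMIs can differ between lines and still not pass, so the count is not that of all genes that differ. In 7 genes (0.117%) 1 line stood above all the others by the same rule, and in 1 gene (0.0167%) 1 line stood below. In the other 66 genes no single line stood apart from all the others by that rule. DGRP-639 was the highest line for 19 of the 74 genes, DGRP-45 for 16, DGRP-136 for 10, DGRP-761 for 9, DGRP-502 for 8, DGRP-382 for 7 and DGRP-409 for 5. DGRP-382 and DGRP-409 were the lowest line for 16 genes each. Over all 5996 measured genes DGRP-639 was the highest line for 1078 (18.0%, against 25.7% of the 74). For DGRP-45 the share was 21.6% of the 74 against 15.7% of all, for DGRP-136 13.5% against 12.2% and for DGRP-761 12.2% against 8.49%. DGRP-502 had 10.8% against 14.3%, DGRP-382 9.46% against 16.96% and DGRP-409 6.76% against 14.3%. DGRP-382 was the lowest for 1229 of the 5996 genes (20.5%) and DGRP-409 for 781, against 21.6% of the 74 for each. The count of DGRP-382 was thus near that of genes in general. The median fold between the highest and the lowest line was 5.92 over the 66 genes counted in both lines. It was 6.28 with the 8 genes at 0 in the lowest line set to a floor of 3 UMIs there.

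The genes past the rule were spread over the genome. They made up 1.63% of the measured genes of chromosome X, 0.575% of 2L, 1.10% of 2R, 1.71% of 3L, 1.04% of 3R and 3.03% of chromosome 4, where 2 of 66 genes passed. Among them were 66 protein-coding genes and 7 non-coding RNAs. Another gene past the rule lay within 10 kb for 6 of the 73 with a position (8.22%), against 191 of 5893 measured genes that did not pass (3.24%). The 6 are the pairs CG5280 and smg, Hsp26 and Hsp67Bc, and HIP and HIP-R, each counted from both genes.

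**Figure D1:**
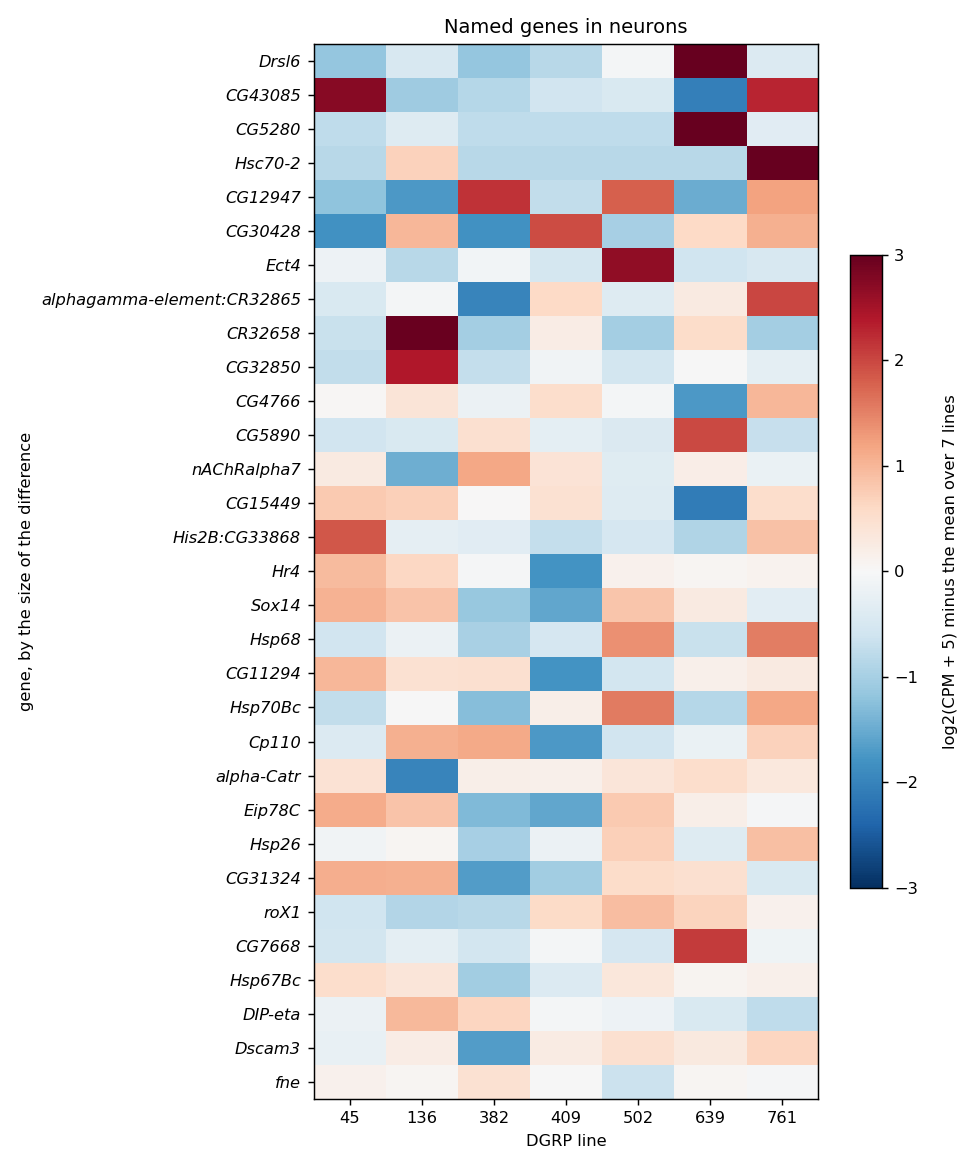
Heat map of the 31 genes named by rule in neurons of the MeOH library, with DGRP lines across and genes down in order of the size of the difference. Colour gives log2(CPM + 5) minus the mean over the 7 lines, limited to 3 in either direction; most genes show several pale lines with 1 to 3 dark ones, as for CG43085 in DGRP-45 and DGRP-761.

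Drsl6, a member of the family of the antifungal peptide Drosomycin, set DGRP-639 apart. The gene lies at 3L:3336032-3336418 on the minus strand. Its level in neurons was 190.4 CPM in DGRP-639, from 212 UMIs, against 5.79 CPM in DGRP-502, 3.45 in DGRP-761, 3.11 in DGRP-136, 1.35 in DGRP-409 and 0 in DGRP-45 and DGRP-382. The DGRP-639 interval of 166 to 218 CPM overlapped no other line's, and the level was 46.6-fold that of 3 UMIs in DGRP-45. A UMI was found in 106 of 246 neurons of DGRP-639 (43.1%, 95% Clopper-Pearson interval 36.8% to 49.5%), against 11 of 1262 neurons of the other 6 lines (0.872%). The NB of DGRP-639 held 41 UMIs, or 129 CPM, against a single UMI in all the NB of the other lines. Glia and GMC of DGRP-639 had only 3 and 2 UMIs. The 1533 neurons of the fresh library had none in 11430341 UMIs, with an upper 95% Poisson bound of 0.323 CPM. Drsl5, a related gene, stood between 0 and 5.79 CPM in every line.

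CG5280 was also read almost wholly in DGRP-639. The gene lies at 3L:8989069-8990228 on the minus strand. Its level was 114.9 CPM in DGRP-639, against 1.72 CPM in DGRP-761, 1.55 in DGRP-136 and 0 in the other 4 lines. That was 28.2-fold the level of 3 UMIs in DGRP-45. In glia, GMC and NB together it was at 68.7 CPM in DGRP-639 and at 0 to 4.02 CPM in the other lines, so the same line stood alone. Its neighbour smg, which encodes the translational repressor Smaug, begins 89 bp away on the same strand and also passed the rule. In neurons smg was highest in DGRP-639, at 69.1 CPM, against 13.5 to 35.3 CPM in the other lines. Reads of neighbouring genes on 1 strand may be split between them by the counting, and the part of this in the 2 results was not tested.

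CG7668, at 3L:20002736-20004834, gave a different picture across classes. In neurons it stood at 118.5 CPM in DGRP-639 (99.2 to 141), against 14.7 to 23 CPM in the other 6 lines. In glia, GMC and NB together the levels ran from 55.1 to 96.1 CPM in all 7 lines, with 90.9 CPM in DGRP-639, and every interval overlapped every other. The single high line was thus seen in neurons, and the other classes had the gene in every line. Clusters 3 and 33 with the G-KC cells, which were left out of the neurons here, had it at 117 CPM in DGRP-639 and at 0 to 23 CPM in the others.

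Hsc70-2, a cognate member of the Hsp70 chaperone family, marked DGRP-761. The gene lies at 3R:13044759-13047388. Neurons had 93.1 CPM in DGRP-761 (76.4 to 112), against 9.32 CPM in DGRP-136 and 0 in the other 5 lines. The level in DGRP-761 was 22.8-fold that of 3 UMIs in DGRP-45. The same order was read in glia, GMC and NB together, with 74.1 CPM in DGRP-761, 15.6 CPM in DGRP-136 and 0 in the others. The fresh neurons, of the DGRP-551 hybrid, had 44.4 CPM. Hsc70-4, the abundant cognate of the family, ran from 859 to 1045 CPM over the lines, with DGRP-761 lowest, and similar sequences in this family leave the assignment of reads uncertain.

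DGRP-136 stood above the other lines for CG32850 and CR32658. CG32850, a RING finger gene that the current annotation calls Rnf11, lies at 4:314923-331387. Its neurons had 638 CPM in DGRP-136, from 821 UMIs, against 68.1 to 116 CPM in the other 6 lines. That was a fold of 9.37 (7.04 to 12.7) over DGRP-45, the lowest line. The direction was kept in all 13 clusters with enough UMIs to read, but these cells are part of the sum itself. Glia had 1044 CPM in DGRP-136 against 101 to 128 CPM elsewhere, GMC 1095 against 39.5 to 140 CPM and NB 855 against 43.3 to 164 CPM. In none of these classes did the interval of DGRP-136 overlap another line's. Fresh neurons had 49.0 CPM. The gene overlaps PMCA on the other strand, and the strand setting of the counting is not given in the sources used here, so reads of the 2 genes cannot be told apart from the counts alone.

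CR32658, a non-coding RNA at X:12091264-12092272, stood at 74.6 CPM in DGRP-136 neurons, against 9.88 CPM in DGRP-639, 6.77 in DGRP-409, 1.36 in DGRP-45 and 0 in DGRP-382, DGRP-502 and DGRP-761. Its interval in DGRP-136, 60.4 to 91.1 CPM, overlapped no other. In GMC it had 6 UMIs in DGRP-136 and none in the other lines, while NB of DGRP-136 had none. It lies within Ten-a on the same strand, so its reads may belong to that gene.

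DGRP-136 was also the only line below all others by the rule, in alpha-Catr, an alpha-catenin related gene at 2R:23957842-23961631. The 6 other lines had 40.6 to 53.9 CPM, and DGRP-136 had 5.44 CPM (2.19 to 11.2) from 7 UMIs. Clusters 3 and 33 with G-KC gave 0 UMIs in DGRP-136 against 43.0 to 77.3 CPM elsewhere. Glia, GMC and NB held 0 to 3 UMIs per line, too few to read.

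Ect4, which the current annotation calls Sarm and which encodes a NAD-cleaving enzyme of axon degeneration, was high in neurons of DGRP-502. The gene spans 3L:8063874-8108897. Its level was 77.2 CPM in DGRP-502 (55.1 to 105), against 2.33 to 7.37 CPM in the other 6 lines, and 21.6% of DGRP-502 neurons had a UMI against 0.990% to 2.48% elsewhere. In glia, GMC and NB together DGRP-502 had 32.1 CPM, inside the range of 6.48 to 57.5 CPM of the others. The difference of DGRP-502 was read again in clusters 3 and 33 with G-KC, at 86.8 CPM against 0 to 25 CPM.

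**Figure D2:**
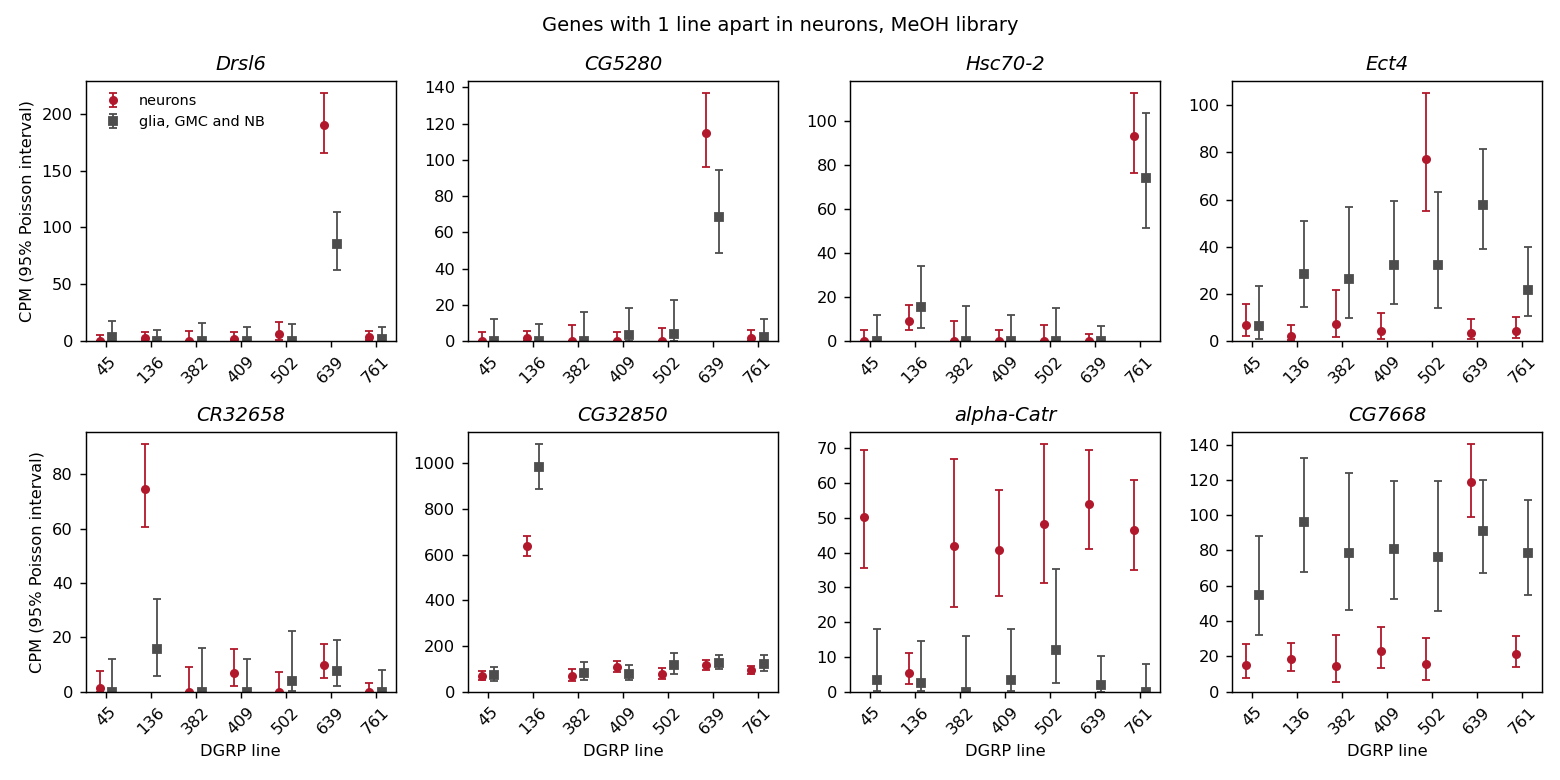
CPM with 95% Poisson intervals for the 8 genes with 1 line apart in neurons, by DGRP line, in neurons (circles) and in glia, GMC and NB together (squares). Drsl6, CG5280, Hsc70-2 and CG32850 have the same high line in both; for Ect4 and CG7668 the other classes have the gene in every line.

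By the ratio of bounds CG43085 had the second largest difference, and its line order depended on the cell class. The gene lies at 3L:17645486-17646737 and has no named function in the annotation. Neurons had 549.8 CPM in DGRP-45 and 401.7 CPM in DGRP-761, against 55.9 CPM in DGRP-502, 51.4 in DGRP-409, 41.8 in DGRP-382, 35 in DGRP-136 and 15.3 in DGRP-639. Both high lines lay clear of the other 5, with a fold of 36.0 (22.2 to 62.4) between DGRP-45 and DGRP-639. A UMI was found in 76.7% of neurons of DGRP-45 and 66.8% of DGRP-761, against 6.10% to 14.4% in the others. GMC and NB had the same 2 lines on top, at 175 and 104 CPM in GMC and 200 and 150 CPM in NB of DGRP-45 and DGRP-761, against 8.98 to 39.5 CPM in the other lines.

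In glia CG43085 was high in every line and in another order. It stood at 4150 CPM in DGRP-409, 2060 in DGRP-502, 1693 in DGRP-382, 1580 in DGRP-136, 895 in DGRP-761, 763 in DGRP-45 and 449 in DGRP-639. The interval of DGRP-409, 3687 to 4655 CPM, overlapped no other, and DGRP-45 and DGRP-761 were among the 3 lowest. These levels rest on 9 to 24 glia per line, with 10 in DGRP-409. No limit on single cells was set in glia, and the mix of glial types per line was not examined. Glia made up 4.41% and 4.14% of the cells of DGRP-45 and DGRP-761, within the 2.34% to 5.17% of all lines. In the fresh library the gene had 7.96 CPM in neurons and 869 CPM in glia. DGRP-409, the highest line in glia, had 51.4 CPM of CG43085 in neurons, and the source of the differences was not tested. In cluster 1 it stood at 976 CPM in DGRP-409 and at 56.4 to 424 CPM in the others.

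**Figure D3:**
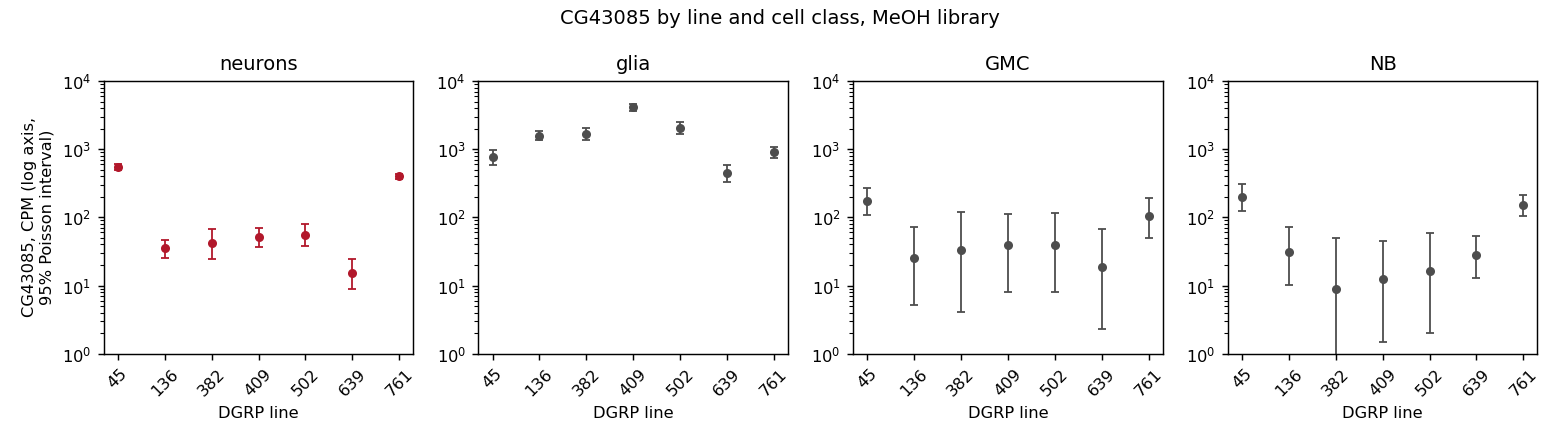
CG43085 by DGRP line in neurons, glia, GMC and NB of the MeOH library, as CPM on a log axis with 95% Poisson intervals. DGRP-45 and DGRP-761 are highest in neurons, GMC and NB, whereas in glia all lines lie between 449 and 4150 CPM with DGRP-409 on top.

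A pair of neighbouring genes of 1 family traded places between lines. HIP, the Hsc/Hsp70-interacting protein at X:3799150-3801570, and its relative HIP-R at X:3789969-3792477 lie 6673 bp apart on the same strand, and both passed the rule. They fall outside the naming rule and were chosen after their values were seen. HIP was highest in DGRP-136, at 152 CPM, and in DGRP-761, at 105 CPM, against 32.5 to 71.4 CPM in the other lines. HIP-R was lowest in these same lines, at 44.3 and 38.8 CPM, against 102 to 146 CPM in the others. HIP therefore took 77.5% of the UMIs of the pair in DGRP-136 and 73.1% in DGRP-761, against 41.1% in DGRP-502, 31.3% in DGRP-382, 24.2% in DGRP-639, 24.1% in DGRP-45 and 23.1% in DGRP-409. The sum of the pair varied less, between 141 and 197 CPM.

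The shares were read again in glia, GMC and NB together, at 82.1% in DGRP-136, 73.0% in DGRP-761, 48.9% in DGRP-502 and 19.2% to 22.8% in the other 4 lines. The intervals of DGRP-136 and DGRP-761 overlapped each other and no other line's in neurons. That of DGRP-502 in neurons, 30.8% to 52.0%, overlapped those of DGRP-382, DGRP-45 and DGRP-409. In glia, GMC and NB together the interval of DGRP-502, 34.1% to 63.9%, overlapped that of DGRP-761, 61.4% to 82.6%. The 2 genes are of 1 family, so how the counting split their reads is uncertain. Fresh neurons had 109 CPM of HIP and 195 CPM of HIP-R.

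**Figure D4:**
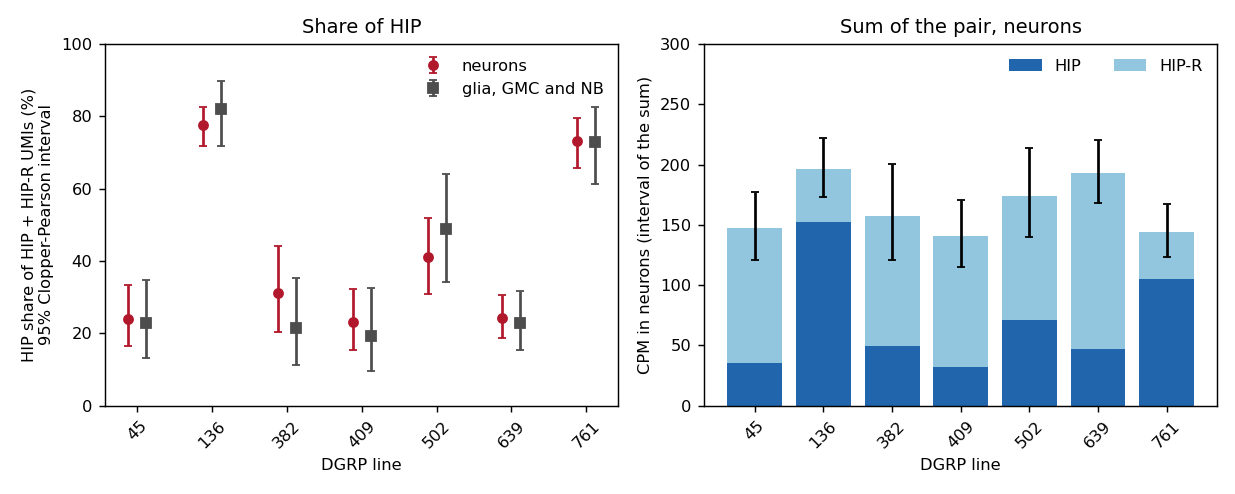
Left, HIP as a percent of HIP and HIP-R UMIs by DGRP line, with 95% Clopper-Pearson intervals, in neurons (circles) and in glia, GMC and NB (squares). Right, CPM of HIP and HIP-R stacked in neurons with the Poisson interval of the sum; the share is over 70% in DGRP-136 and DGRP-761 while the sum stays between 141 and 197 CPM.

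Genes of the fixed lists passed the rule in 7 of 23 lists. Heat shock genes passed in 4 of 15 measured (26.7%, against 1.23% of all measured genes), with a median log2 difference of 0.94 between highest and lowest line, against 0.76 over all measured genes. Hsp68, an inducible chaperone, had 459 CPM in DGRP-761, 409 in DGRP-502, 138 in DGRP-136, 108 in DGRP-409, 102 in DGRP-45, 95.2 in DGRP-639 and 76.2 in DGRP-382. Hsp70Bc had 206 CPM in DGRP-502 and 156 CPM in DGRP-761, against 24.6 to 75.8 CPM in the others. The small heat shock gene Hsp26 had 2521 CPM in DGRP-761 and 2220 CPM in DGRP-502, against 673 to 1395 CPM in the others. The same 2 lines were thus the highest for all 3 genes, with intervals clear of the other lines, and DGRP-382 was the lowest.

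In glia, GMC and NB together Hsp68 stood at 583 CPM in DGRP-502, 566 in DGRP-761 and 391 in DGRP-409, against 48.0 to 281 CPM in the other lines. Hsp26 stood at 4235, 3396 and 2687 CPM in DGRP-761, DGRP-502 and DGRP-409, against 423 to 1704 CPM. DGRP-502, DGRP-409 and DGRP-761 were also the lines with the largest share of cluster 1, and whether this bears on the heat shock levels was not tested. Hsp67Bc followed another order, with 978 CPM in DGRP-45, 869 in DGRP-136, 860 in DGRP-502, 753 in DGRP-761, 718 in DGRP-639, 508 in DGRP-409 and 329 in DGRP-382. The other 11 measured heat shock genes did not pass, and Hsp83 had 1228 CPM in DGRP-45 and 700 CPM in DGRP-382, its extremes. Hsp70 genes have near-identical copies, so the value of Hsp70Bc is uncertain.

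Ecdysone is the steroid that times larval moults and metamorphosis, and 3 of its 16 measured response genes (18.8%, against 1.23% of all measured genes) passed, all with DGRP-45 highest and DGRP-409 lowest. The nuclear receptor gene Hr4 had 208 CPM in DGRP-45, 165 in DGRP-136, 116 in DGRP-502, 114 in DGRP-761, 111 in DGRP-639, 103 in DGRP-382 and 27.1 in DGRP-409. Its interval in DGRP-409, 16.5 to 41.8 CPM, overlapped no other. Glia, GMC and NB together gave 408 CPM in DGRP-45 and 77.6 CPM in DGRP-409, again the lowest. With the clusters given the same weights in each line, the log2 difference of Hr4 was 2.96, against 2.73 as counted.

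Sox14, a transcription factor of neurite pruning, and Eip78C, a nuclear receptor gene, were lowest in DGRP-409 and next lowest in DGRP-382. Sox14 had 272 CPM in DGRP-45, 240 in DGRP-136, 233 in DGRP-502, 158 in DGRP-639, 103 in DGRP-761, 56.5 in DGRP-382 and 40.6 in DGRP-409. Eip78C had 61.2 CPM in DGRP-45, against 7.37 CPM in DGRP-382 and 5.41 CPM in DGRP-409. Both lines with the lowest values were those with 1 and 2 cells of cluster 13. With the same cluster weights the log2 difference between DGRP-45 and DGRP-409 was 0.92 for both genes, against 2.60 for Sox14 and 2.67 for Eip78C as counted, and neither passed. That setting kept 7 clusters with 65.7% of the neurons and left out cluster 13, so the weights and the missing cells cannot be told apart. In glia, GMC and NB together Sox14 had 71.2 CPM in DGRP-45 and 64.7 CPM in DGRP-409, with overlapping intervals. Eip78C had 64.8 CPM in DGRP-45 and 3.23 CPM in DGRP-409 there, with intervals apart. The other 13 measured ecdysone genes did not pass as counted, among them EcR, the ecdysone receptor, at 128 CPM in DGRP-45 and 90.5 CPM in DGRP-761.

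In the sex list, with 5 genes measured, roX1, a non-coding RNA of male dosage compensation, was the only gene past the rule. It had 2394 CPM in DGRP-502, 2015 in DGRP-639, 1877 in DGRP-409, 1376 in DGRP-761, 832 in DGRP-45, 707 in DGRP-382 and 684 in DGRP-136. A UMI of roX1 or roX2 was found in 85.1% to 87.8% of the neurons of DGRP-502, DGRP-639 and DGRP-409, against 62.6% to 71.8% in the other 4 lines. The sex of the larvae is not given, so a line's own level and its share of male larvae cannot be told apart.

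Of 22 measured ion channel genes (4.55%, against 1.23% of all measured genes), nAChRalpha7, a nicotinic acetylcholine receptor subunit at X:19327075-19348447, was the 1 that passed. It stood at 491 CPM in DGRP-382, 288 in DGRP-409, 263 in DGRP-45, 251 in DGRP-639, 189 in DGRP-761, 168 in DGRP-502 and 75.4 in DGRP-136, a fold of 6.52 (5.09 to 8.40). Both ends of this order were clear of the rest. DIP-eta and Dscam3, cell-surface genes of the immunoglobulin superfamily, were the 2 of 38 recognition genes past the rule (5.26%). DIP-eta had 69.1 CPM in DGRP-136 and 17.2 CPM in DGRP-761, and Dscam3 had 56.9 CPM in DGRP-761 and 7.37 CPM in DGRP-382, from 3 UMIs. The neuron marker fne, an RNA-binding protein of the ELAV family, passed with 9743 CPM in DGRP-382 and 4506 CPM in DGRP-502, against 6827 to 7667 CPM in the other lines. Of 9 other settings fne passed under 4, not under TMM, DESeq2 factors or equal weight of cells, and DIP-eta and Dscam3 each passed under 3. Immune genes had 2 members measured, and Drsl6 was the one past the rule.

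In 13 further lists with measured genes none passed. These were the antiviral, detoxification, metal, mitochondrially encoded, birth time, synaptic and heterochromatin and RNA control lists, the markers of glia, of neuroblasts and GMC, of hemocytes, of fat body and of imaginal disc and eye, and the genes used as a level reference. The synaptic list had 0 of 19, with a median log2 difference of 0.54, and the mitochondrially encoded list 0 of 13. At the 1.23% of all measured genes, 0 in lists of this size is near the background. The Y chromosome, muscle and salivary gland lists had no gene measured. Lists with few genes measured can show little.

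Several of the largest differences fell in genes that are named by number only. CG12947, at 3R:9780064-9783054, was high in 3 lines, with 103 CPM in DGRP-382, 79.1 in DGRP-502 and 50.9 in DGRP-761, against 9.47 in DGRP-409, 5.44 in DGRP-45, 3.59 in DGRP-639 and 2.33 in DGRP-136. CG30428, at 2R:25251927-25254535, was low in 3 lines, with 63.6 CPM in DGRP-409, 31.9 in DGRP-761, 30.3 in DGRP-136 and 21.5 in DGRP-639, against 3.86 CPM in DGRP-502 and 0 in DGRP-382 and DGRP-45. The other classes had 11.1 to 38.8 CPM of CG30428 in the first 4 lines and 0 in the last 3, the same split. CG5890, at 3R:25856154-25872670, had 287 CPM in DGRP-639 and 98.3 CPM in DGRP-382, against 41.4 to 55.5 CPM in the others.

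CG15449, at X:21039514-21040605, had 23.2 to 58.5 CPM in neurons of 6 lines and 3.59 CPM in DGRP-639. In the other classes DGRP-761 was the highest, at 192 CPM, with 513 CPM in its glia, and DGRP-639 was again the lowest, at 1.86 CPM. The gene overlaps Ntf-2 on the other strand, whose reads cannot be told apart without the strand setting. His2B:CG33868, 1 of many near-identical histone copies on 2L and so uncertain, had 40.8 CPM in DGRP-45 and 18.1 CPM in DGRP-761, against 1.80 to 5.44 CPM in the others. In glia, GMC and NB together it had 664 CPM in DGRP-45 and 58.8 CPM in DGRP-761, against 0 to 12.1 CPM in the others. Histone genes are transcribed in dividing cells, and the 2 lines on top were the same in both.

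Of the remaining named genes, CG4766 ran from 33.6 CPM in DGRP-761 to 0.898 CPM in DGRP-639, a ratio of 37.4 (6.33 to 1516) that rests on 1 UMI in DGRP-639. The non-coding alphagamma-element:CR32865, a repeated element without a position in the annotation, had 113 CPM in DGRP-761, 16.3 to 39.3 CPM in 5 lines and 2.46 CPM in DGRP-382. In glia, GMC and NB together this order was turned, with DGRP-382 the highest line at 362 CPM and DGRP-761 at 259 CPM. Cp110, a centriole gene, had 101 CPM in DGRP-382 and 9.47 CPM in DGRP-409. CG11294 had 105 CPM in DGRP-45 and 10.8 CPM in DGRP-409, and CG31324 112 CPM in DGRP-45 and 12.3 CPM in DGRP-382. Of these 5, CG4766, CG11294 and CG31324 no longer passed with the same cluster weights. Neither did CG7668, His2B:CG33868, Hsp67Bc, DIP-eta, Dscam3 and fne, whose log2 differences then lay between 0.95 and 2.41. A further 43 genes passed and are not described singly, with 20.7 to 5339 CPM in their highest line.

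Most differences kept their direction in the classes that the rule did not use. The highest and lowest line of each gene were fixed in neurons, and their order was read in the summed UMIs of 103 glia, 170 GMC and 133 NB. Of the 58 genes past the rule with at least 10 UMIs there, 52 kept the direction (89.7%, 95% Clopper-Pearson interval 78.8% to 96.1%), against 63.7% of the 4510 measured genes that could be read. The median log2 difference, with 10 CPM added, was 1.18 for the 58 genes and 0.18 for all. In 30 of the 58 the interval of the high line lay above that of the low line, against 8.14% of all. The classes share the library and the larvae, and the part of this in the result was not tested.

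Glia alone kept 25 of 31 directions (80.6%), with an interval of 62.5% to 92.5% that includes the 63.2% of all genes. That interval, like the others for shares of genes, treats genes as independent, although all were read in the same 7 lines. It gives no spread between lines and no test against the share of all genes. GMC kept 23 of 25 (92%, interval 74.0% to 99.0%; 63.0% over all genes) and NB 33 of 36 (91.7%, interval 77.5% to 98.2%; 64.7%). The left-out clusters 3 and 33 with G-KC kept 50 of 57 (87.7%, interval 76.3% to 94.9%; 61.4%) and cluster 1 kept 55 of 59 (93.2%, interval 83.5% to 98.1%; 64.9%). Inside the neurons, 315 of 328 readable pairs of gene and cluster had the direction of the sum (96.0%), but these cells are part of the sum itself. In 6 of the 58 genes the order was turned in glia, GMC and NB together. These were alphagamma-element:CR32865, CG31324, fne, CG14989, CG18528 and CG43689. There CG31324 had 22.7 CPM in DGRP-45 and 39.3 CPM in DGRP-382, from 7 and 9 UMIs. The gene fne had 707 CPM in DGRP-382 and 820 CPM in DGRP-502, and for both genes the intervals overlapped. CG14989, singled out after its values were seen, was the 1 gene with intervals apart the other way, at 3031 CPM in DGRP-639 and 1286 CPM in DGRP-136 neurons, but 55.7 CPM in DGRP-639 and 143 CPM in DGRP-136 in the other classes.

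**Figure D5:**
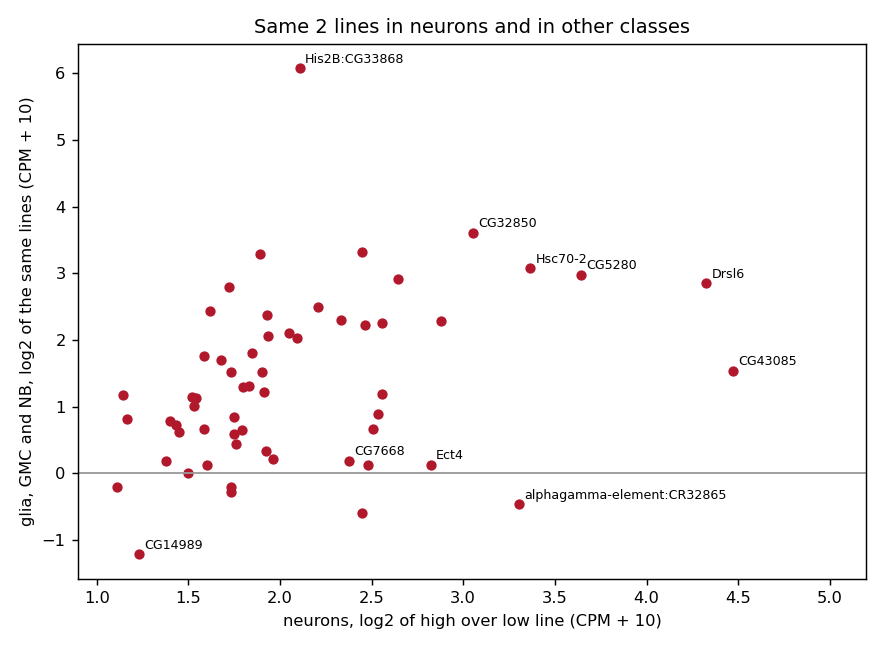
Log2 of the highest over the lowest line in neurons (horizontal) against log2 of the same 2 lines in glia, GMC and NB (vertical), both with 10 CPM added, for the 58 genes past the rule with at least 10 UMIs there. 52 points lie above the line at 0; CG14989 is the lowest and His2B:CG33868 the highest.

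The limit on single cells removed many genes. Without it 127 genes would pass, since 53 more had over 20% of the UMIs of their highest line in 1 neuron. Among these, chosen after their values were seen, were neuropeptide genes read in few cells. Of the 73 UMIs of CCHa2 in DGRP-502 98.6% came from 1 neuron, as did 96.5% of the 57 UMIs of Tk in DGRP-409 and 39.4% of the 330 UMIs of SIFa in DGRP-409. At the edge of the rule the ratio of bounds was 2.04 for Dscam3, and 2.01 for both MED10 and fne, just inside. It was 1.99 for pdm3, 1.97 for CG31142 and 1.96 for dpr21, just outside.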

How the data were processed

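The deposited matrices hold raw counts, namely UMIs per gene and cell barcode. Per the submitters' processing notes, Cell Ranger, Seurat and the dm6 build were used, with versions not given in the sources used here. By the deposited file and column names, demuxlet gave each MeOH barcode its line. The authors' metadata table gives cluster names and the mitochondrial percent of each cell (median 1.84% to 2.40% in neurons per line). Positions are dm6, from the Ensembl BDGP6 annotation; 13848 of 17473 gene symbols matched directly, 3528 by synonym and 97 did not.

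UMIs were summed per line and class with Python 3.11.15, and divided by the total to give CPM. Exact 95% Poisson and Clopper-Pearson intervals used scipy 1.17.1, with the Fay-Feuer form for weighted sums. The interval of a sum treats UMIs as independent, although cells of a line share larvae. No gene was tested between lines, since a line was 1 unit; summed levels and shares over the 7 lines were only screened with Dixon's gap. No doublet caller was run, each annotated cell carries 1 line, and how doublets were treated before deposit is not given in the sources used here. The script was tested on simulated counts. Named were the 25 genes with the largest ratio of bounds, up to 3 per line among genes with 1 line high or low, and genes past the rule in the fixed lists. The neurons and the lists were chosen with earlier results of these data known. Scaling factors from edgeR 4.0.16 and DESeq2 1.42.0, computed with R 4.3.3 from these counts, other thresholds, cell weights and sets of cells, and each line left out in turn were tried. Of 2937 demultiplexed barcodes, 222 are not in the metadata table and entered no comparison.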

Additional observations from a re-analysis of the deposited data

Results flagged for a closer look

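Over the 7 lines, 49 summed levels and shares were examined for a line far from the others, by its gap to the nearest line over the whole range, with a critical value of 0.568. In 5 the gap was larger, and chance gives about 1 in 20 for values not chosen for such a gap. That rate does not apply to 18 of the 49, which are genes named for a difference between lines in neurons, nor to the immune list, which holds Drsl6. In neurons the summed level of the immune list was 214 CPM in DGRP-639 against 38.6 CPM in the next line, a gap of 0.900 of the range, and Drsl6 supplied 212 of its 238 UMIs. In glia, GMC and NB together, the gap was 0.940 for CG32850 in DGRP-136, 0.911 for His2B:CG33868 in DGRP-45, 0.681 for CG15449 in DGRP-761 and 0.594 for CG43085 in DGRP-409. For CG15449 and CG43085 this high line was not the high line of the neurons.

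A total of 222 demultiplexed MeOH barcodes that the metadata table does not list entered no comparison, and they hold cells of unknown class. In them Drsl6 stood at 124.9 CPM in DGRP-639 against 2.95 CPM in the other lines together, and CG5280 at 85.2 CPM in DGRP-639 against 1.69 CPM. Hsc70-2 stood at 102.3 CPM in DGRP-761 against 0.777 CPM, and CG32850 at 636 CPM in DGRP-136 against 111 CPM. Ect4 had 60.95 CPM in DGRP-502 against 14.4 CPM, and CG7668 104.3 CPM in DGRP-639 against 56.5 CPM. In these 6 genes the interval of the line that was high in neurons lay above that of the other 6 lines summed, which were not compared one by one. For CR32658 the intervals overlapped, at 10.7 CPM in DGRP-136 against 3.73 CPM. Only the 7 genes with 1 line high in neurons were read here. No share over all measured genes can be set beside them.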

How the results depend on the processing

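No paired analysis was possible because each line is 1 unit in 1 library. The count of genes past the rule, 74 as reported, was 27 with wider Poisson intervals, 196 at a fold of 1.5, 28 at a fold of 3, 135 with clusters 3 and 33 and G-KC added (57 shared with the 74), 216 with cluster 1 added (65 shared) and 127 with no limit on 1 cell. It was 72 with TMM factors or DESeq2 factors, 52 with equal weight of cells (46 shared) and 40 with the same cluster mix (35 shared, over 7 clusters with 65.7% of the neurons). Leaving out 1 line in turn gave 54 to 68. Genes with 1 line high, 7 as reported, numbered 12 at a fold of 1.5, 3 with at least 200 UMIs, 13 with no limit on 1 cell and 4 to 9 with a line left out (4 without DGRP-639). Genes with 1 line low, 1 as reported, numbered 0 with the wider intervals, 4 at a fold of 1.5, 0 at a fold of 3, 0 with the same cluster mix, 2 with clusters 3 and 33 and G-KC, 2 with cluster 1 and 0 to 2 with a line left out (0 without DGRP-136; 2 without DGRP-382, DGRP-502 or DGRP-639). The cause of these changes beyond the thresholds and cells themselves was not tested.

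Of the 31 named genes, 20 passed under each of 9 settings. Over all 279 values 36 no longer passed, with the same direction, and 0 were reversed. The genes were chosen for their difference in largely the same cells, so reversals were unlikely from the start. The wider intervals leave each log2 difference unchanged and cannot reverse it. The share of genes that kept their direction in glia, GMC and NB, 89.7%, was 80.6% in glia alone and 85.7% to 95.1% with a line left out. DGRP-382, with 123 neurons, limits low values most: 3 UMIs there are 7.37 CPM.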
